A study of Mus musculus with 18 samples.

Results

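The genes described here are the members of the Zfp gene family, named for zinc finger proteins, that bone-marrow-derived mouse macrophages expressed. They were chosen by name and level: table rows whose GENCODE M21 symbol starts with Zfp and a digit, with a mean of at least 1 RPKM (reads scaled to gene length and library total) over the 18 columns. That gave 91 of the 233 Zfp rows in a table of 11164 genes. The RNA-decay factors Zfp36l1 and Zfp36l2 and the pseudogene Zfp125 were left out, and 139 rows lay under the level. The last members inside were Zfp825 with a mean of 1.06 RPKM, Zfp90 with 1.05 and Zfp456 with 1.03. The nearest rows outside were Zfp346 with 0.981, Zfp628 with 0.978 and Zfp397 with 0.946.

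Most Zfp genes encode proteins with tandem C2H2 fingers, short loops held by a zinc ion that each contact a few bases of DNA. A large subset also carries a KRAB domain, which recruits the corepressor TRIM28 (KAP1) and through it histone deacetylases, the methyltransferase SETDB1 and HP1 proteins, so that chromatin at the bound site is silenced. KRAB zinc finger genes lie in chromosomal runs that arose by duplication and are best known for silencing retroelements and guarding genomic imprints. Other members bind RNA, sense stalled ribosomes or act as ubiquitin or SUMO ligases.

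The macrophages came from wild-type (WT), BAFF KO and APRIL KO mice. The strain is labelled C57BL/6J throughout, BAFF and APRIL are related ligands of the TNF family, and all samples carry a time-point label of preterm birth at gestation day 16, whose bearing on cultured cells the labels do not explain. The cells had either no stimulus or 4 hours of lipopolysaccharide at 10 ng/ml (LPS, a bacterial surface molecule that TLR4 detects). There were 9 libraries, each deposited as 2 columns that were averaged: 1 unstimulated and 2 LPS libraries of each genotype. The labels do not say which libraries came from separate mice or cultures, so p-values measure the spread between these libraries. Library depth in the 11164 genes was 5121833 to 6020780 reads. Tnfsf13, which encodes APRIL, was at 0 recovered reads in the 3 APRIL KO libraries, where the table lists a floor of 0.2325 RPKM, and between 12.99 and 52.81 RPKM in the other 6. The BAFF gene was not analysed here. The 8 macrophage markers summed to between 4685 and 7607 RPKM in every library, and none of the 6 T or NK cell markers looked for was among the rows. Skeletal muscle genes, for which 14 of 15 markers were listed, summed to 245.5 to 363.1 RPKM in the 3 WT libraries and to 23.82 to 61.32 in the 6 knockout libraries. Stromal genes (4 of 5 markers listed) varied between libraries of 1 genotype. They summed to 128.8, 222.3 and 52.38 RPKM in WT, 10.31, 8.485 and 41.48 in BAFF KO, and 7.099, 13.9 and 432.1 in APRIL KO libraries (unstimulated first). Their bearing on the Zfp values was not tested.

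By sequence the members fell into 3 classes. A pattern search of proteins translated from the GENCODE M21 coding sequences found a KRAB box with C2H2 fingers in 41 members. In 47 it found C2H2 fingers and no KRAB match. A KRAB box that departs from the pattern is missed, so this fingers-only class may hold KRAB genes. In Zfp330, Zfp839 and Zfp935 the search found no C2H2 finger, and these were classed by that alone. The number of fingers ran from 0 to 30 (Zfp236) with a median of 8. The median was 11 in the KRAB class and 5 in the fingers-only class. The KRAB class was expressed lower, with a median gene mean of 1.91 RPKM against 3.89.

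The expressed Zfp genes were mostly low. Their mean levels had a median of 2.71 RPKM and ran from 1.03 to 32.76, where all 9100 rows at 1 RPKM or more had a median of 8.82. Only 12 members reached 10 RPKM, and 33 lay under 2. Because RPKM is scaled to gene length, the members can be ranked by it. Zfp993, a KRAB member, had the highest mean, 32.76 RPKM against 32.41 for Zfp330, but 76.0% of its 85-base windows, the length of 1 sequencing read, also occur in other transcripts, which leaves its own level uncertain. Its unstimulated level was 44.45 ± 5.10 RPKM (SD, n = 3) and its level with LPS 26.92 ± 3.29 (SD, n = 6). Zfp330, a nucleolar protein, stood at 40.69 ± 2.84 RPKM unstimulated and 28.28 ± 5.18 with LPS. Their ranges overlapped in both conditions. Zfp207, a spindle and splicing factor, stood at 20.81 ± 2.28 and 20.50 ± 2.10 RPKM. Zfp277 had 23.05 ± 1.02 RPKM unstimulated and 19.72 ± 1.91 with LPS. Behind these levels stood few reads: the median member had 36 reads in a library, and 50 members fell under 30 reads in at least 1. All 91 passed the filter on low values, among 9934 genes tested.

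Near-identical copies limit what can be read for single KRAB genes. The table's reads could be recovered exactly, and Zfp967 and Zfp969 had the same number of reads in 18 of 18 columns. The libraries in order held 36, 11, 20, 37, 23, 21, 70, 18 and 29 reads for each of them. Both lie on chromosome 2 in a run of 6 members between 175372436 and 176719085 of the GRCm38 (mm10) assembly, with Zfp965, Zfp966, Zfp968 and Zfp973. The coding sequences of Zfp966, Zfp967, Zfp968 and Zfp969, each 1455 bases long, were identical. The first 85 coding bases, the length of 1 sequencing read, are shown for members of the run to make this visible. A capital marks a base that differs from Zfp967.
Zfp967: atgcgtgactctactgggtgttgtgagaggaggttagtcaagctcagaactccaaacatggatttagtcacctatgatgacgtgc
Zfp969: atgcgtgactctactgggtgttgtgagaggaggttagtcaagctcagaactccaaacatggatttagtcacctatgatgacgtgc
Zfp965: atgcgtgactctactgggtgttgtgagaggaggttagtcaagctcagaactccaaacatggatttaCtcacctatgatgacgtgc
Zfp973: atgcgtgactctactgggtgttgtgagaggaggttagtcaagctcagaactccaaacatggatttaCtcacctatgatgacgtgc
Zfp965 and Zfp973 differed from Zfp967 at 1 base here, and a read from any of these stretches can match several genes. Over whole gene models, every 85-base window of Zfp967 and of Zfp969 also occurred in transcripts of other genes, as did 94.1% of those of Zfp965, 91.0% of Zfp968, 82.9% of Zfp966 and 74.3% of Zfp973. In all, 13 members shared at least 50% of their windows with other transcripts on either strand, overlapping genes included, and 34 shared none. The values of those 13, Zfp993 among them, are uncertain as single-gene values.

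**Figure D1:**
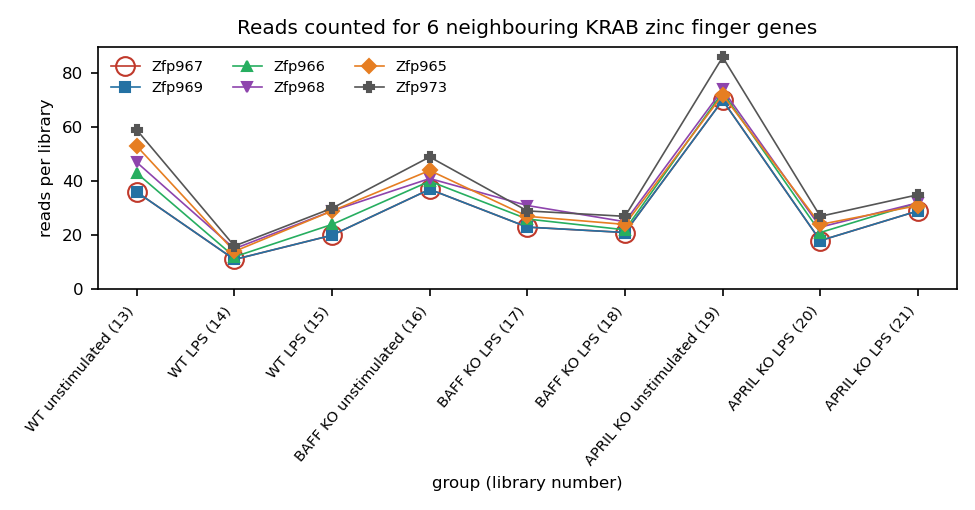
Reads recovered per library (y axis) for the 6 members of the chromosome 2 run in each of the 9 libraries (x axis, library number in brackets). Zfp967 and Zfp969 coincide in every library, and the other 4 genes follow the same course, with all 6 highest in the unstimulated APRIL KO library and lowest in WT LPS library 14.

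With LPS, 61 of the 91 members fell, 8 rose and 22 did not pass the test in the average of the 3 genotypes (limma, adjusted p below 0.05). Over all genes tested, 62.1% were called lower and 18.1% higher, beside 67.0% and 8.79% of the members. Among genes with a mean of 1 to 10 RPKM, 66.0% were lower and 12.3% higher. The median change of the members was -0.51 on the log2(RPKM + 1) scale, and that of all genes was -0.44. RPKM is relative to the library's total, and median ratio scaling, which sets the typical gene level between libraries, moved the median of all genes to -0.02. Under it 22 members were lower and 16 higher, where 30.1% of all genes were lower and 31.0% higher (36.1% and 20.7% of genes at 1 to 10 RPKM). The members' median was then -0.09.
Of the 61 falls, 22 were also lower under that scaling, 38 were not called and 1, Zfp277, was called higher. All 8 rises were called under both. The 6 LPS libraries all lay below the 3 unstimulated ones for 47 members (49.0% of all genes did so) and all above for 5 (14.2% of all genes).

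**Figure D2:**
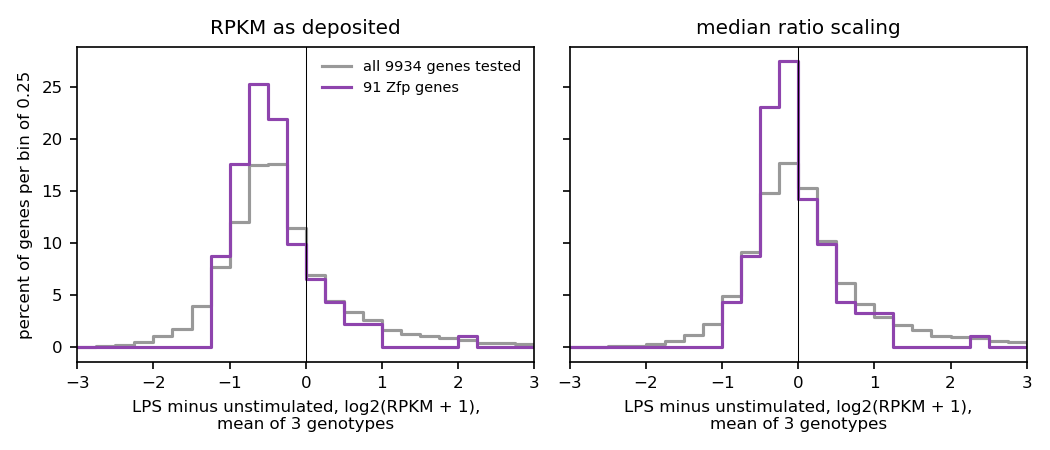
Share of genes (y axis, percent per bin of 0.25) by LPS change on the log2(RPKM + 1) scale (x axis) for all 9934 genes tested and for the 91 Zfp genes, from the deposited RPKM (left) and after median ratio scaling (right). The Zfp genes follow the bulk of all genes and have few members in the right-hand tail; values beyond 3 in either direction are not shown.

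**Figure D3:**
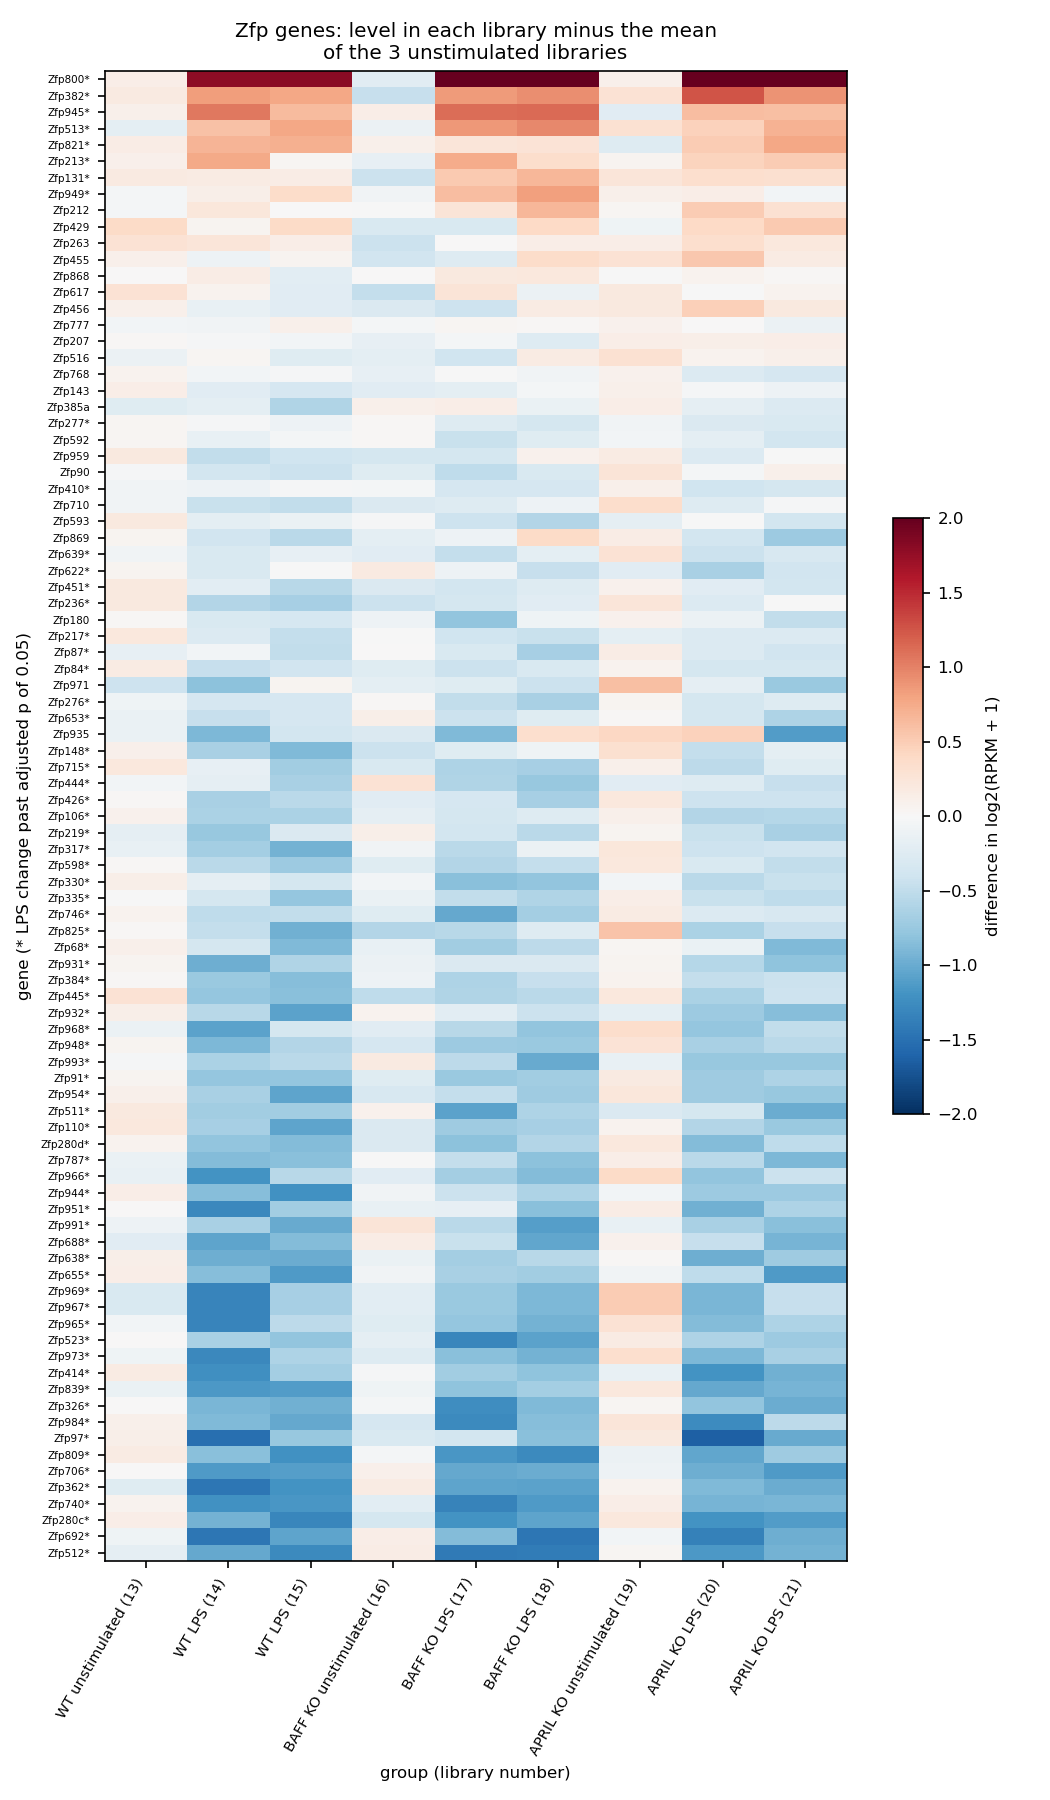
Level of each of the 91 members (rows, sorted by LPS change) in each of the 9 libraries (columns), as the difference in log2(RPKM + 1) from the mean of the 3 unstimulated libraries. Red is higher and blue lower, with the colour scale ending at 2, and asterisks mark LPS changes past an adjusted p of 0.05 (limma). A short red block at the top holds the rises, with Zfp800 far above the rest, and the lower part of the map is blue in all 6 LPS libraries.

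Zfp800, a C2H2 protein of 662 residues with 6 fingers and no KRAB match, had the largest rise. Its level was 3.41, 2.45 and 3.32 RPKM in unstimulated WT, BAFF KO and APRIL KO cells. With LPS it was 12.97 and 13.06 RPKM in WT, 16.49 and 17.07 in BAFF KO, and 16.86 and 19.41 in APRIL KO libraries. Every LPS library lay above every unstimulated one, and the 4 knockout libraries lay above both WT libraries with LPS. The averaged rise was 2.06 ± 0.09 (SE) on the log2(RPKM + 1) scale, with an adjusted p of 5.04e-07, or 5.22-fold between the mean RPKM of 3.06 and 15.98. It was called in each genotype, as 1.67 in WT, 2.37 in BAFF KO and 2.14 in APRIL KO. The difference between knockout and WT under LPS did not pass the adjusted test (0.34 ± 0.13 SE, adjusted p 0.136, for BAFF KO and 0.45 ± 0.13 SE, adjusted p 0.206, for APRIL KO).

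Zfp382 and Zfp945, both KRAB members, were the other 2 members higher in all 3 genotypes (11.1% of all genes were). Zfp382, with 9 fingers, stood at 1.65, 0.713 and 1.85 RPKM unstimulated. With LPS it reached 3.17 and 3.02 RPKM in WT, 3.23 and 3.49 in BAFF KO, and 4.60 and 3.38 in APRIL KO, a rise of 0.92 ± 0.12 (SE, adjusted p 0.000212). Zfp945, with 18 fingers, stood at 0.989, 1.03 and 0.590 RPKM unstimulated and at 2.86, 1.90, 3.02, 3.09, 1.85 and 1.83 with LPS. Its rise was 0.86 ± 0.12 (SE, adjusted p 0.000363). The groups of both genes did not overlap, and none of their 85-base windows occurred in another transcript, so copies do not blur these 2 genes.

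The promoters of these 3 genes are printed because they are the members that rose in every genotype. Each sequence runs from 250 bases before to 50 after a RefSeq transcript start (GRCm38.p6), and Zfp800 has 2 listed starts. Capitals mark CG dinucleotides, which are dense in CpG island promoters.
Zfp382, chr7:30121682-30121981, plus strand: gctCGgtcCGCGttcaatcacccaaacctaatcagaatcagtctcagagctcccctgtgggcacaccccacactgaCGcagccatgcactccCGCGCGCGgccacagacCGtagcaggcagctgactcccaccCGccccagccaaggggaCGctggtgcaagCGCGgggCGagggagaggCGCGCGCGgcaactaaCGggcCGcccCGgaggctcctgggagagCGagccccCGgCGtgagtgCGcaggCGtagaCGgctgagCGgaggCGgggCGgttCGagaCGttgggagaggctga
Zfp800 (distal start), chr6:28397956-28398255, minus strand: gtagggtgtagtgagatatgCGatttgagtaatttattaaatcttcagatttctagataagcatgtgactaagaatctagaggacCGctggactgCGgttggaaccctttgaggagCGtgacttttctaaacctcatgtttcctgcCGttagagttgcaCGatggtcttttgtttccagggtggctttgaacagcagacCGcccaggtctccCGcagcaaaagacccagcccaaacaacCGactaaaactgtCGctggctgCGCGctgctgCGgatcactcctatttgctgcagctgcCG
Zfp800 (proximal start), chr6:28261875-28262174, minus strand: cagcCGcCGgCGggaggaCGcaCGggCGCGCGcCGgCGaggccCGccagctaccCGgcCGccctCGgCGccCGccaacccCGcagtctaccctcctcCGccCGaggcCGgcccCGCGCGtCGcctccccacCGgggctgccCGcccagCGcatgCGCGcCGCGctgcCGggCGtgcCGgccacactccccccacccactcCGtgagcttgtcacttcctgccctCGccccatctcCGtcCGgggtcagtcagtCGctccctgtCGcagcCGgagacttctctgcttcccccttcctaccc
Zfp945, chr17:22867085-22867384, minus strand: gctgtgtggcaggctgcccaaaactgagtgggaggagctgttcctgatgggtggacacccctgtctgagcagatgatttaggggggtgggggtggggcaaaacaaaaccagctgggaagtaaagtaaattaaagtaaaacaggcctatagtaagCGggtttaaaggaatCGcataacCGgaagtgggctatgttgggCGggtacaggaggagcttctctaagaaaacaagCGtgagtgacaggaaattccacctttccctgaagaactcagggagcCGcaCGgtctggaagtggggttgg
The promoters differed in make-up. Zfp382 held 32 CG dinucleotides in its 300 bases, the proximal Zfp800 start 41, the distal Zfp800 start 14 and Zfp945 7. The median was 7 over all 32851 listed promoters and 17 over the 100 listed for 80 of the members. GGGACTT, the first bases of a classical NF-kB site, was in 5.44% of all promoters, and TGANTCA, the AP-1 site, in 7.81%, on either strand. Neither was in any of the 4 promoters shown, and each was in 2 of the members' 100.

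The other 5 rises were smaller. Zfp513, a C2H2 factor known from the retina, went from 4.38, 4.70 and 6.66 RPKM to 8.28, 9.51, 10.26, 10.99, 7.53 and 9.04, a rise of 0.73 ± 0.10 (SE, adjusted p 0.000321). Its change was called in WT and in BAFF KO cells and did not pass in APRIL KO cells (0.27, adjusted p 0.209). That of Zfp821 was called in WT and APRIL KO cells, with 2.15 RPKM unstimulated against 3.58 and 3.67 with LPS in WT, and 1.39 against 3.06 and 3.85 in APRIL KO. In BAFF KO cells Zfp821 stood at 2.07 RPKM unstimulated and 2.38 and 2.46 with LPS.
Zfp131, a BTB zinc finger factor, rose on average by 0.36 ± 0.09 (SE, adjusted p 0.00591), and the largest step was in BAFF KO cells. In WT cells its level was 7.83 RPKM unstimulated and 7.69 and 7.65 with LPS. In BAFF KO cells it was 4.78 RPKM unstimulated and 10.18 and 11.34 with LPS, and in APRIL KO cells 8.23 unstimulated and 8.81 and 8.69 with LPS. Averaged over WT and APRIL KO cells its change was 0.03 (adjusted p 0.834), and that of Zfp949 fell from 0.33 (adjusted p 0.0313) to 0.10 (adjusted p 0.534). In that average 5 members were higher, Zfp800, Zfp382, Zfp945, Zfp513 and Zfp821, and 59 lower (1610 and 5761 of the 9934 genes tested). Zfp213, named after its values were seen, had an averaged rise of 0.47 (adjusted p 0.0386) with overlapping groups, and 49.0% of its windows occur in other transcripts.

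**Figure D4:**
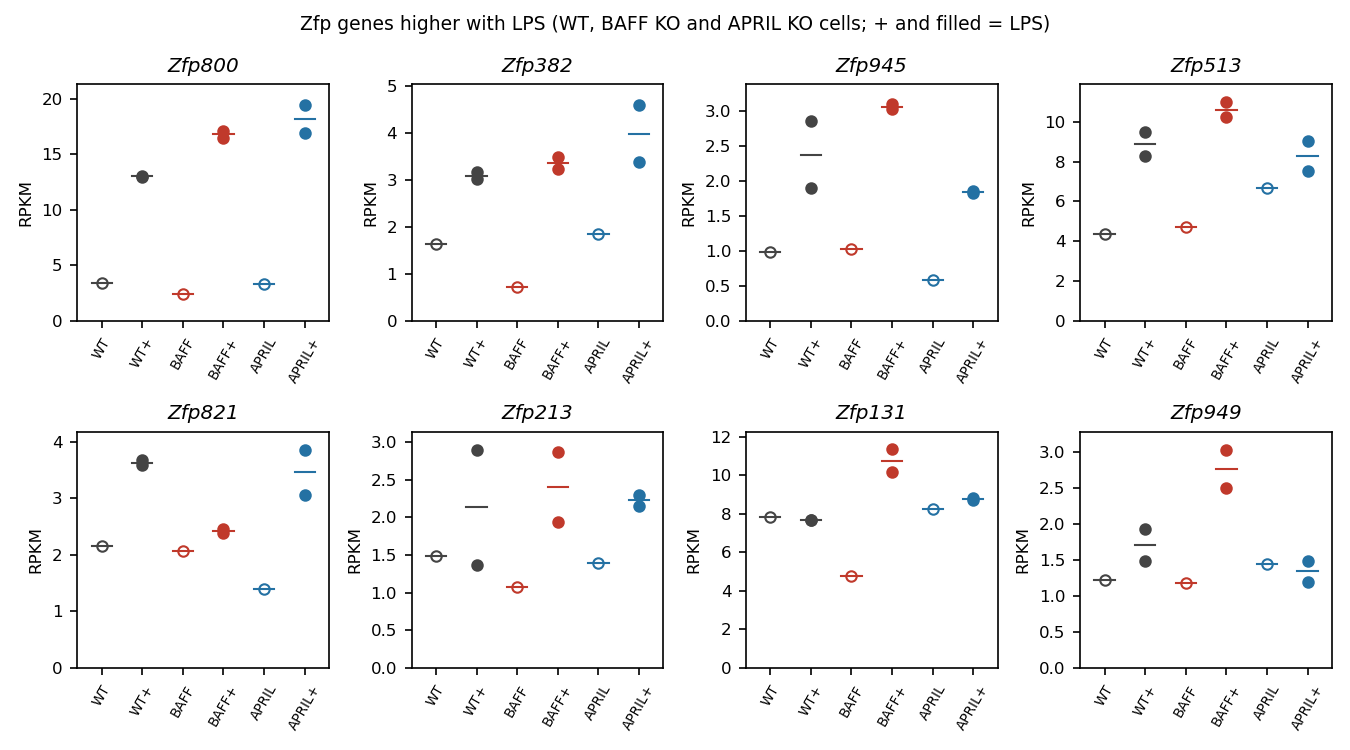
RPKM (y axis, from 0) of the 8 members called higher with LPS, by genotype. Each point is 1 library, open for unstimulated and filled for LPS (marked +), and bars are group means. In Zfp800, Zfp382 and Zfp945 all LPS points lie above all unstimulated ones, while in Zfp131 the BAFF KO pair stands far above its unstimulated point and the WT and APRIL KO pairs lie near theirs.

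On the log2(RPKM + 1) scale the largest falls were in Zfp512, Zfp692, Zfp280c, Zfp740, Zfp362 and Zfp706, none of which had a KRAB match. This order is tied to the scale, which understates changes of low genes, and the KRAB class was the lower one. By ratio of mean RPKM the KRAB genes Zfp809 and Zfp97 fell 2.80-fold and 2.73-fold, against 2.75-fold for Zfp512 and 2.24-fold for Zfp706. The first 2 ratios rest on few reads: 7 to 15 in an LPS library for Zfp809 and 1 to 13 for Zfp97. For Zfp97 71.1% of the windows also occur in other transcripts, so its single-gene value is uncertain. Zfp512 went from 6.68, 8.70 and 7.95 RPKM to 3.30, 2.62, 2.27, 2.30, 2.94 and 3.54. That is a change of -1.20 ± 0.11 (SE, adjusted p 3.8e-05), and it was called in each genotype. Zfp692 went from 6.14, 7.34 and 6.29 RPKM to 1.77, 2.64, 3.14, 1.79, 1.95 and 2.86, a change of -1.19 ± 0.17 (SE, adjusted p 0.000389). Zfp280c, a member on the X chromosome, lost most in ratio: its mean of 3.26 ± 0.845 RPKM (SD, n = 3) was 3.54 times the 0.921 ± 0.166 (SD, n = 6) with LPS.
Zfp706, whose protein of 76 residues holds 1 finger, fell with little spread, from 14.83, 15.90 and 13.74 RPKM to between 6.21 and 7.06. For all 6 of these genes every LPS library lay under every unstimulated one. They were also called lower under median ratio scaling, by -0.58 (Zfp706) to -0.79 (Zfp280c). Called lower in each genotype were 17 members, against 30.4% of all genes.

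The list of genes known for imprint and retroelement control held 9 genes, of which Zfp445, Zfp809, Zfp932 and Zfp638 were members. All 4 were called lower, with a median of -0.73, where 62.1% of all genes were lower. Under median ratio scaling 2 of the 4 were lower (30.1% of all genes). Zfp809, which recognises the tRNA primer site of retroviral elements, had 4.41, 3.69 and 3.46 RPKM unstimulated and 1.72, 1.08, 1.15, 1.00, 1.34 and 1.96 with LPS. Its change was -1.04 ± 0.14 (SE, adjusted p 0.000225), and it was lower in each genotype. Zfp638, which binds unintegrated retroviral DNA, fell from 16.73 ± 1.44 RPKM (SD, n = 3) to 9.14 ± 1.36 (SD, n = 6). Both were also lower under median ratio scaling. Zfp445, which protects imprints, had 5.54, 2.76 and 5.20 RPKM unstimulated and 1.98 to 3.03 with LPS. Its BAFF KO libraries stood at 2.76 RPKM without LPS and at 2.54 and 2.69 with it, so unstimulated and LPS libraries overlapped. Zfp932, a repressor of endogenous retroviruses, changed by -0.64 (adjusted p 0.00367). Zfp445 and Zfp932 did not pass under median ratio scaling (adjusted p 0.108 and 0.128).

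Of the members that act on RNA, ribosomes, ubiquitin or SUMO, 7 of 10 fell and none rose, a share of falls near the 62.1% of all genes. Zfp326, a factor linking transcription and splicing, fell from 6.30 ± 0.207 RPKM (SD, n = 3) to 2.76 ± 0.382 (SD, n = 6). Zfp91, a ubiquitin ligase, fell from 12.85 ± 1.98 to 7.38 ± 0.359 RPKM, and Zfp598, the ligase that senses collided ribosomes, from 11.13 ± 1.90 to 7.43 ± 0.838. Zfp207 did not pass, with a change of -0.02 (adjusted p 0.805). The ribosome biogenesis factor Zfp593 (-0.28, adjusted p 0.0632) and the RNA-binding Zfp385a (-0.21, adjusted p 0.119) did not pass either. Under median ratio scaling 2 of the 10 were lower, Zfp326 and Zfp91, and Zfp207 was higher by 0.48 (adjusted p 0.00109), where 30.1% of all genes were lower and 31.0% higher.

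Sequence-specific factors with a described role were mixed. Of 10 members on that list 6 fell and 1, Zfp131, rose, near the shares of all genes (62.1% and 18.1%). The falls were Zfp384, Zfp746 (PARIS, a parkin substrate), Zfp335, Zfp148, Zfp217 and Zfp410, a regulator of the remodeller gene Chd4. They ranged from -0.60 in Zfp384 to -0.26 in Zfp410. Zfp143, which binds promoters and loop anchors, stood at 11.37 ± 1.63 RPKM unstimulated and 10.09 ± 0.912 with LPS, and Zfp263 at 14.98 ± 3.91 and 16.73 ± 1.37. Neither passed. Under median ratio scaling 3 of the 10 were higher, Zfp131, Zfp143 and Zfp263, and none was lower (31.0% and 30.1% of all genes).

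In the KRAB class 28 of 41 were lower and 3 higher, with a median change of -0.58. In the fingers-only class, which may hold KRAB genes that the search missed, 31 of 47 were lower and 5 higher, with a median of -0.40. Both shares of falls are near that of all genes at 1 to 10 RPKM, 66.0%. Under median ratio scaling the counts were 8 lower and 6 higher against 13 lower and 10 higher, where 36.1% of genes at 1 to 10 RPKM were lower and 20.7% higher. Across the 91 genes, which are not independent, the correlation of finger number with LPS change was 0.139. The 6 members of the chromosome 2 run were all called lower, with a median of -0.83. Because they share most of their sequence, they may have been counted partly from the same reads. These cannot be taken as 6 independent falls. Under median ratio scaling 1 of the 6 was lower, Zfp973. The 5 pairs of members with the most similar course over the 9 libraries all lay within this run, with a Pearson correlation of 1.0 for Zfp967 and Zfp969 and down to 0.990 for the others. On chromosome 17, where Zfp948, Zfp944, Zfp945 and Zfp213 lie between 21567008 and 23564238, 2 members rose and 2 fell: neighbours there did not move together. On chromosome 13, Zfp455, Zfp456, Zfp429 and Zfp87 gave 1 fall and 3 members that did not pass. The chromosome 6 run of Zfp212, Zfp777 and Zfp746 gave 1 fall. All 3 members were lower in the chromosome 4 run (Zfp993, Zfp991 and Zfp984, median -0.80). So were all 3 in the chromosome 7 run (Zfp787, Zfp444 and Zfp954, median -0.73), where 62.1% of all genes were lower. Under median ratio scaling 1 member was lower on chromosome 4 and 2 on chromosome 7. Zfp991 and Zfp993 share 73.3% and 76.0% of their windows.

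Genes of the silencing machinery that KRAB proteins recruit were lower and higher in numbers that depended on the scaling. Of 32 listed corepressor and heterochromatin genes, 30 were tested, 23 were lower with LPS and 4 higher (62.1% and 18.1% of all genes), with a median of -0.52. Trim28 fell from 57.34 ± 2.31 RPKM (SD, n = 3) to 35.43 ± 1.78 (SD, n = 6) and Setdb1 from 11.25 ± 1.15 to 4.37 ± 0.372. Dnmt1, the maintenance DNA methyltransferase, fell furthest, from 38.53 ± 6.38 to 5.67 ± 1.30 RPKM, and the HP1 gene Cbx3 went from 27.16 ± 3.86 to 8.06 ± 0.833. Daxx, a histone chaperone partner of Atrx, rose from 18.32 ± 1.96 to 162.7 ± 7.37 RPKM. Morc3 and Hdac1 were also among the rises. Under median ratio scaling 11 were lower and 11 higher (30.1% and 31.0% of all genes). Setdb1, Dnmt1 and Cbx3 were lower under both, and Trim28 was not called under it (-0.17, adjusted p 0.0741).

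Within single genotypes, 47 members were lower and 5 higher with LPS in WT cells (46.7% and 13.7% of all genes). In APRIL KO cells 47 were lower and 4 higher (47.8% and 14.4% of all genes). In BAFF KO cells 24 were lower and 7 higher (43.8% and 16.0% of all genes). The lower BAFF KO count of falls depends on the scaling. With median ratio scaling there were 9 falls in WT, 7 in BAFF KO and 8 in APRIL KO cells (20.6%, 17.9% and 21.9% of genes at 1 to 10 RPKM), and with quantile normalization 13, 11 and 9. The test of the difference itself called no member: with limma, 0 members had an LPS response that differed between BAFF KO and WT cells, where 0.221% of all genes were called in each direction. At an unadjusted p under 0.05 there were 15, all with a more positive response in BAFF KO cells, where 13.6% of all genes were more positive and 7.91% more negative at that p. With median ratio scaling there were 11, of which 9 were more positive (9.97% and 9.87% of all genes), and with quantile normalization 8, of which 7 were. For quantile normalization the share of all genes at that p was not counted. On the recovered reads voom called 4 higher, Zfp106, Zfp131, Zfp148 and Zfp236 (4.47% of all genes). In the KRAB class 5 of 41 fell in BAFF KO cells, and 21 and 23 in WT and APRIL KO cells, where 42.2%, 51.2% and 51.8% of genes at 1 to 10 RPKM fell. With median ratio scaling those KRAB counts were 1, 3 and 2. The response difference was positive in 67 of the 91 members (73.6%) and in 57.0% of all genes, with a median of 0.25 against 0.08 for all genes. With median ratio scaling it was positive in 62 members, with a median of 0.195 against 0.015 for all genes. With quantile normalization it was positive in 57, with a median of 0.099 against -0.006. The response of APRIL KO cells differed from WT in 0 members (limma, 0.0% of all genes in either direction), with 1, Zfp513, at an unadjusted p under 0.05 (1.68% of all genes more positive and 1.71% more negative) and 0 by voom.

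The difference involves the unstimulated libraries, 1 for each genotype. There was no test between these, and columns of 1 library are not replicates. By a fold of at least 1.5 with both columns beyond both WT columns, 17 members were lower and none higher in unstimulated BAFF KO cells, where 12.3% of all genes were lower and 4.79% higher. They included Zfp445 with 2.74 and 2.79 RPKM in the BAFF KO columns against 6.22 and 4.85 in WT, and Zfp263 with 10.68 and 10.54 against 18.94 and 17.37. Zfp236 had 2.05 and 2.48 against 4.74 and 3.34 RPKM, and Zfp617 0.882 and 1.10 against 2.57 and 2.23. In unstimulated APRIL KO cells 8 members were higher and 2 lower (4.9% and 5.47% of all genes). Of the 8, 4 were the near-identical Zfp966, Zfp967, Zfp968 and Zfp969. The unstimulated BAFF KO library also had the highest sum of the 9 listed neutrophil genes, 5778 RPKM, against 3069 in unstimulated WT and 2734 in unstimulated APRIL KO cells. The part of this in the Zfp values was not tested, and fewer cells of a type cannot be told apart from less RNA in each.

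Under LPS, 1 member differed between BAFF KO and WT cells: Zfp330, which was lower (4.35% of all genes were lower and 3.99% higher). Its levels were 35.89 and 31.45 RPKM in WT, 22.20 and 23.10 in BAFF KO, and 27.51 and 29.53 in APRIL KO cells. Both BAFF KO libraries lay under all others, and the unstimulated levels of 43.96, 39.18 and 38.92 RPKM were above every LPS library. The difference from WT was -0.55 ± 0.10 (SE, adjusted p 0.0179). It stayed between -0.46 and -0.64 when either WT or either BAFF KO library was left out. The call was lost without WT library 14 (adjusted p 0.0858), without BAFF KO library 17 (0.0973) and without BAFF KO library 18 (0.0896). With the lower-index columns alone it was -0.39 (adjusted p 0.2). From APRIL KO cells the BAFF KO cells differed by -0.32 ± 0.10 (SE, adjusted p 0.123).

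Next to Zfp330, 16 members had an unadjusted p under 0.05 between BAFF KO and WT cells under LPS, and 13 of them were higher in BAFF KO, where 13.1% of all genes were higher and 12.2% lower at that p. Zfp148, a zinc finger factor that binds GC-rich promoters, was at 2.03 and 2.41 RPKM in BAFF KO and 1.31 and 0.955 in WT cells, a difference of 0.60 ± 0.17 (SE, adjusted p 0.0801). Zfp131 differed by 0.44 ± 0.12 (SE, adjusted p 0.0734). Neither passed with limma, while voom on the recovered reads called Zfp148 and Zfp106 higher (6.61% of all genes) and Zfp821 and Zfp330 lower (5.6% of all genes). Of the corepressors Dnmt1 was higher in BAFF KO cells by 0.61 (adjusted p 0.0291). Under LPS the BAFF KO libraries also held 2705 and 2324 RPKM of the neutrophil genes against 1344 and 1702 in WT, with 7 of 9 called higher, and 10 of 11 tested skeletal muscle genes were lower in them. Whether these bear on Zfp330 was not tested.

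**Figure D5:**
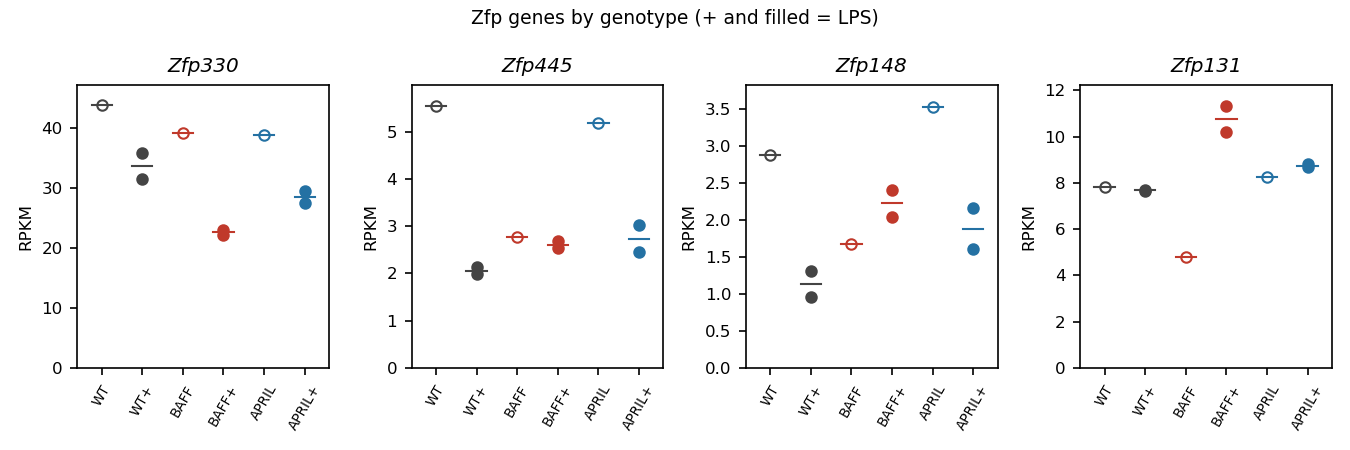
RPKM (y axis, from 0) of Zfp330, Zfp445, Zfp148 and Zfp131 by genotype, open for unstimulated and filled for LPS libraries (marked +), with group means as bars. Zfp330 is lowest in the BAFF KO LPS pair; for the other 3 genes the unstimulated BAFF KO library lies below the unstimulated WT and APRIL KO ones.

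Between APRIL KO and WT cells under LPS, limma called 0 members (0.0101% of all genes were higher and 0.201% lower). At an unadjusted p under 0.05 there were 8, with 7 higher (7.86% of all genes were higher and 7.63% lower), and voom called 0. The largest of these was Zfp456, with a difference of 0.52 ± 0.21 (SE, adjusted p 0.303) at about 1 RPKM. Its WT LPS libraries held 19 and 18 reads, and 59.6% of its windows occur in other transcripts, so its single-gene value is uncertain. Between BAFF KO and APRIL KO cells limma also called 0 members (2.48% of all genes were higher and 3.06% lower), with 11 at an unadjusted p under 0.05, of which 5 were higher (10.0% of all genes were higher and 9.4% lower). The KRAB gene Zfp949 came closest. It stood at 2.50 and 3.03 RPKM in BAFF KO and 1.49 and 1.20 in APRIL KO cells, a difference of 0.68 ± 0.17 (SE, adjusted p 0.0612), and voom called it (1.23, adjusted p 0.0279), as it did 4.07% of all genes in that direction. Under LPS the difference from WT was positive in 69 of the 91 members for APRIL KO (75.8%, beside 51.1% of all genes). For BAFF KO it was positive in 62 members (68.1%, beside 53.3% of all genes). The comparisons with WT share the 2 WT libraries, so their values are not independent of each other.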

How the data were processed

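The labels' protocols give mirVana isolation of macrophage RNA and single reads of 85 bases. They name both a directional and a TruSeq kit, which leaves strand unknown. The submitters' processing notes name STAR and mm10, and a counter is not given in the sources used here. What the authors deposited is a table of RPKM values for 11164 genes in 18 columns. Its low values show counts raised by 1 read, and the reads could be recovered (100% whole within 0.01 reads).

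The 2 columns of a library number were averaged, giving 9 libraries of 5121833 to 6020780 reads. Genes with a group mean of at least 1 RPKM were kept (9934), put on the log2(RPKM + 1) scale and fitted in limma 3.58.1 (R 4.3.3). The fit had 6 group means, 3 residual degrees of freedom and eBayes with a trend. Tests were 2-sided, with Benjamini-Hochberg adjustment over all genes tested and a threshold of 0.05. Unstimulated groups of 1 library are assumed to vary like the others. Fold changes on this scale understate those of low genes. The script was tested on simulated data.

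The members and lists were chosen with earlier results of these data known. Named genes are, by comparison, up to 10 called members in each direction whose groups do not overlap, the 5 highest, and the role lists. Proteins came from GENCODE M21 coding sequences, and the KRAB search pattern was widened after it had missed known KRAB proteins. The promoter motifs were set after a looser NF-kB form had matched a large share of the listed promoters. Of the IDs, 11084 had a symbol. The alternatives changed the pseudocount (to 0.1), the filter, the scaling, the columns used, the replicate block, the model (voom on reads) or left out an LPS library.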

Additional observations from a re-analysis of the deposited data

Results flagged for a closer look

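Single columns stood apart from the other 3 of their LPS group in 8 of the 153 groups of 4 columns checked, by the gap to the nearest column relative to the range. With so many groups checked, some such gaps arise by chance. The 4 columns come from 2 libraries and are not independent values, so a nominal rate of 1 in 20 need not hold. In WT cells with LPS, Zfp692 was at 3.717 RPKM in replicate 3 and between 1.565 and 1.779 in the others. In BAFF KO cells with LPS, Zfp800 was at 15.98 RPKM in replicate 1 (others 17.01 to 17.09), Zfp384 at 6.393 in replicate 2 (others 8.194 to 8.458) and Zfp949 at 3.563 in replicate 4 (others 2.44 to 2.562). In APRIL KO cells with LPS, Zfp513 was at 5.555 RPKM in replicate 1 (others 8.833 to 9.494) and Zfp385a at 18.25 in replicate 1 (others 15.83 to 16.0). There, Zfp143 was at 11.9 RPKM in replicate 2 (others 10.37 to 10.44) and Zfp622 at 17.5 in replicate 3 (others 11.98 to 12.92).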

How the results depend on the processing

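Scaling moved the LPS counts most. In the average of genotypes, median ratio scaling gave 16 higher and 22 lower members and quantile normalization 14 and 21. Over all 9934 genes tested they gave 3084 and 2990, and 2418 and 4157. In WT cells median ratio scaling gave 9 and 9 (2286 and 1686 of all genes) and quantile normalization 10 and 13 (1776 and 2728). In BAFF KO cells the first gave 12 and 7 (2326 and 1723), and the second 11 lower (3004). In APRIL KO cells they gave 10 and 8 (2345 and 1814), and 9 and 9 (1870 and 2859). Changes that turned positive under median ratio scaling were Zfp277 (0.28), Zfp410 (0.14) and Zfp622 (0.17), and under quantile normalization Zfp217 (0.018), Zfp410 (0.19) and Zfp451 (0.018). The lower-index columns alone gave 2 higher and 21 lower in WT, 11 lower in BAFF KO, 2 higher and 15 lower in APRIL KO cells, and 0 lower for BAFF KO against WT. Over all genes these counts, in that order, were 1086, 3043, 2838, 1186, 3271 and 142. The higher-index columns alone gave 7 higher in APRIL KO cells, 1 higher for BAFF KO against WT and 2 higher for BAFF KO against APRIL KO (1376, 308 and 201 of all genes). The 18 columns as separate samples gave 37 lower in BAFF KO cells (5086 of all 9934 genes). They gave 9 higher and 4 lower for BAFF KO against WT (1444 and 1262 of all genes) and 4 higher for APRIL KO against WT (757). For BAFF KO against APRIL KO they gave 4 higher and 4 lower (910 and 914 of all genes). More positive responses in BAFF KO than in WT were 12 (1454 of all genes). On the recovered reads voom gave 2 higher and 2 lower for BAFF KO against WT, 1 higher for BAFF KO against APRIL KO and 4 more positive responses in BAFF KO. Over all genes these were 657, 556, 404 and 444. At a fold of 2 the unstimulated counts were 5 lower in BAFF KO, and 1 higher and 0 lower in APRIL KO. The share of all genes at that fold was not counted. The average over WT and APRIL KO alone, chosen after seeing the data, gave 5 higher and 59 lower (1610 and 5761 of all genes). The cause of these shifts was not tested.

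Leaving out 1 LPS library at a time gave 6 to 9 higher and 57 to 62 lower in the average, 2 to 5 and 34 to 43 in WT, 6 to 8 and 16 to 25 in BAFF KO, and 4 to 4 and 31 to 44 in APRIL KO cells, and 0 to 1 lower for BAFF KO against WT. Without WT library 14 the WT rises were 2 (1239 of all genes), and without library 15 they were 3 (1267). Without APRIL KO library 20 the APRIL KO falls were 31 (3961 of all genes). The other comparisons kept 0. Over all genes the average gave 1739 to 1782 higher and 5992 to 6037 lower. For BAFF KO against WT 139 to 317 of all genes were lower.

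Replicate numbers did not pair the libraries: deviations of same-numbered libraries correlated at -0.18, -0.102 and 0.12. With the replicate number as a block, 7 members were higher and 54 lower in the average, 4 and 38 in WT, 9 and 20 in BAFF KO and 4 and 35 in APRIL KO cells, and 0 and 1 for BAFF KO against WT. Over all genes these were 1674 and 5778, 1265 and 4225, 1504 and 4023, 1341 and 4347, and 259 and 305. Crossing the numbers of WT, an alternative chosen after seeing the data, gave 7 and 59 in the average (1712 and 5943 of all genes).

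Depth limits the precision of single members, of which the median one had 36 reads in a library. A pseudocount of 0.1, no filter, and voom moved none of the 4 LPS counts by more than 1.5 times.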
